A study of Mus musculus with 19 samples.

Results

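The genes described here are 10 genes of MHC class I antigen presentation: H2-K1, H2-D1, H2-T23, B2m, Tap1, Tap2, Tapbp, Psmb8, Psmb9 and Nlrc5. They were taken by gene name from a table of 36682 gene entries, each name matched 1 entry, and all 10 passed the filter on low counts that left 22778 genes for testing. The ganglia were those of male mice homozygous for the macrophage Fas-induced apoptosis (MaFIA) transgene, in which a Fas fusion protein driven by the Csf1r promoter is switched on by the dimerizing drug AP20187. All groups carried the transgene, so none was a wild-type control, and the Csf1r promoter is active in macrophages and in other myeloid cells. In the DMM mice (destabilization of the medial meniscus) 1 knee was operated on, which leads to osteoarthritis, and naive mice of matched age were left without surgery. Each mouse was injected intraperitoneally with AP20187 or vehicle daily for 5 days, in DMM mice 8 weeks after surgery. This gave 5 DMM mice on AP20187, 5 DMM mice on vehicle, 4 naive mice on AP20187 and 5 naive mice on vehicle. Poly(A) RNA came from lumbar dorsal root ganglia, which house the sensory neurons of the hind limb, taken on the operated side and pooled within each mouse. The mouse's age is not given in the sources used here.

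Class I molecules show peptides made inside a cell to CD8 T cells and to natural killer cells. A heavy chain pairs with the light chain beta-2 microglobulin, is loaded with peptide in the endoplasmic reticulum, and travels to the surface. The peptides are cut by the proteasome, whose inducible catalytic subunits replace constitutive ones after interferon, and are pumped in by the TAP transporter. Most nucleated cells carry class I, neurons at rest carry little, and interferon raises the whole set together through IRF1, NF-kappaB and the coactivator NLRC5.

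AP20187 left most of the set without a called change. In DMM mice, 1 of 10 genes passed the threshold, an adjusted p of 0.05 in edgeR's quasi-likelihood test over all 22778 genes: Tap2, a subunit of the peptide transporter, rose by a log2 fold change of 0.84 (SE 0.24). In that comparison 23.8% of all tested genes passed. DESeq2 also called 1 of 10 (35% of the genes it gave an adjusted p) and limma voom with sample weights 4 of 10 (46.9% of all genes), and leaving out 1 library at a time gave 0 to 5 of 10 in edgeR. In naive mice 0 of 10 genes passed in edgeR, beside 11.2% of all genes, with 1 of 10 at an unadjusted p under 0.05, and 0 of the 10 members passed with DESeq2 (19.1% of all genes) or with limma voom and sample weights (19.9%). All 10 fitted changes were positive in naive mice and 9 of 10 in DMM mice, with Nlrc5 as the exception at -0.23, but no gene had groups that were apart, where 12.9% of all tested genes did in DMM and 15.5% in naive mice. Within a group the highest mouse had 1.30 to 5.63 times the scaled count of the lowest in the vehicle groups, depending on the gene, and 1.17 to 2.38 times in the AP20187 groups.

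The promoters of the heavy chains and of B2m carry a known shared arrangement of boxes, named S, X1, X2 and Y, at which NLRC5 acts with the RFX, CREB/ATF and NF-Y proteins. The X2 box is bound by CREB/ATF and holds the letters TGACG, and the Y box is bound by NF-Y and holds ATTGG. RefSeq promoter windows (build GRCm38.p6) were at hand for 8 of the 10 genes, all but Tap2 and Nlrc5. Those of the heavy chain H2-T23 and of Tapbp and Psmb8 held no TGACG on either strand. In the windows of H2-K1, H2-D1 and B2m both boxes were found on the gene's strand, with 20 bases between them. These 30 bases are shown because they hold both boxes at the spacing that the 3 genes share. Capitals mark TGACG and ATTGG, and each sequence reads 5′ to 3′ on the gene's strand.
H2-K1, chr17:34000359-34000388, minus strand: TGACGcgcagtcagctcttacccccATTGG
H2-D1, chr17:35262993-35263022, plus strand: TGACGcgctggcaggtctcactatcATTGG
B2m, chr2:122147609-122147638, plus strand: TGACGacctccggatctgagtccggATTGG

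The boxes began 41 and 16 bases before the annotated start in H2-K1, 101 and 76 before it in H2-D1, and 78 and 53 before it in B2m. A further H2-K1 window, with its start at another base, held the same element. The H2-K1 and H2-D1 elements were identical at 23 of 30 bases. Those of H2-K1 and B2m were identical at 13 of 30 bases, and those of H2-D1 and B2m at 12 of 30, with 10 in each case being the searched boxes themselves. TGACG followed by ATTGG at exactly 20 bases was found in 30 of 32536 distinct windows (0.0922%), counting both strands, and at any distance in 2.22%. The spacing was searched after the sequences of the 3 genes had been seen, so it describes them and tests nothing.

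Longer stretches of H2-K1 and B2m show the elements that interferon and NF-kappaB use, upstream of the same boxes. Capitals mark a kappaB motif, an interferon motif, TGACG and ATTGG.
H2-K1, chr17:34000355-34000462, minus strand: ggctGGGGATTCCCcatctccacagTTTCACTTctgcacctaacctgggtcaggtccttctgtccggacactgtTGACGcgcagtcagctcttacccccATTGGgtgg
B2m, chr2:122147546-122147642, plus strand: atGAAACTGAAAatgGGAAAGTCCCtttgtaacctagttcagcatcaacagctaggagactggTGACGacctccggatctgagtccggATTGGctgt

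The motifs were searched on both strands. AANNGAAA, the core bound by interferon regulatory factors, was in the windows of H2-K1, H2-D1, H2-T23 and B2m, and in 21.3% of all windows. The longer GAAANNGAAA, which contains that core, was in those of H2-T23 and B2m and in 2.98% of all. GGGNNTTNCC, the kappaB motif, was in those of H2-K1, H2-D1 and B2m and in 4.11% of all. TGACG alone was in 17.9% of all windows and CCAAT, the other strand of ATTGG, in 33.8%, and the TGACG of the Tap1 and Psmb9 windows was 1 site shared by both. A match is only a run of letters in a window of fixed length.

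By FPKM, which scales counts to gene length and library size, the genes of the set lay at very different mean levels over the 19 mice. B2m stood first at 508 ± 185 FPKM (SD, n = 19). The heavy chains followed, with H2-D1 at 161 ± 59.1, H2-K1 at 69.7 ± 30.2 and, below Tapbp, H2-T23 at 15.6 ± 7.85. Tapbp lay at 24.3 ± 5.23, Tap2 at 8.97 ± 3.75, Psmb8 at 8.42 ± 4.18, Tap1 at 4.34 ± 1.91 and Psmb9 at 3.01 ± 1.60 FPKM. Nlrc5 was lowest at 0.890 ± 0.338 FPKM. Of neighbours in this order, H2-T23 and Tap2, Tap2 and Psmb8, Psmb8 and Tap1, and Tap1 and Psmb9 differed by less than the larger of their SDs, and the other neighbours by more. The lowest count of any of the 10 genes in any library was 255, for Psmb9, so counting error was small beside the spread between mice.

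All values by mouse below are CPM, counts relative to TMM-scaled library size, which are comparable between mice but not between genes. The plot of CPM by mouse shows them for the whole set.

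**Figure D1:**
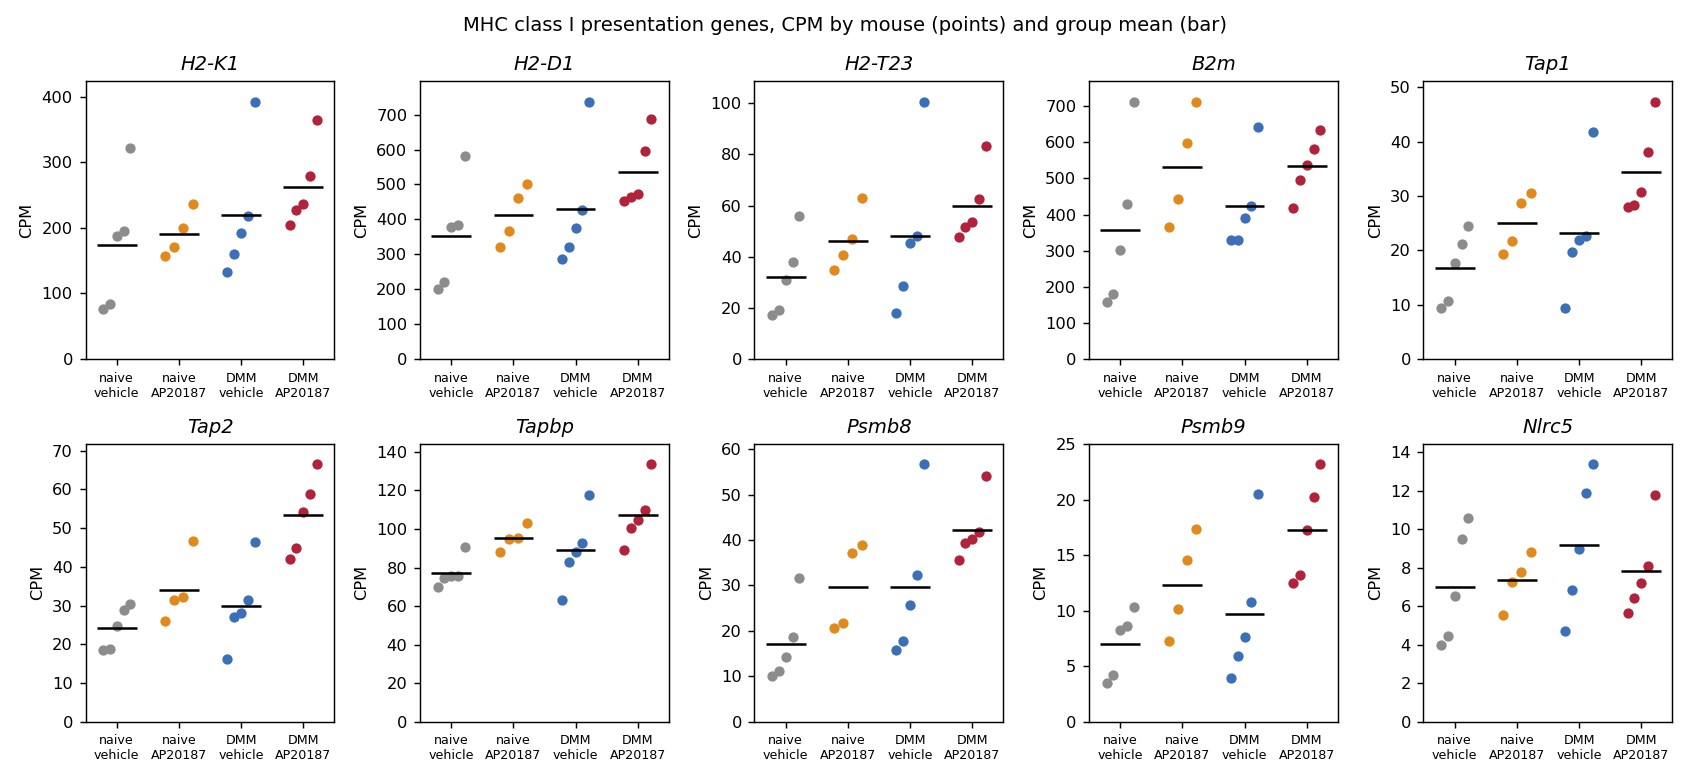
CPM of each gene (vertical axis, linear from 0, scaled per gene) in the 4 groups (horizontal axis). Points are mice and bars are group means. In no gene do the points of AP20187 and vehicle mice lie fully apart, and 1 DMM vehicle mouse, number 64, lies at the level of the highest AP20187 mice in most panels.

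H2-K1 and H2-D1 encode the classical heavy chains, which present peptides to CD8 T cells. H2-K1 was at 133, 161, 193, 218 and 392 CPM in DMM vehicle mice 32, 33, 34, 63 and 64, and at 364, 237, 226, 205 and 279.8 CPM in DMM AP20187 mice 58 to 62. All 5 AP20187 mice lay above the vehicle median and none above vehicle mouse 64. The fitted log2 fold change was 0.26 (95% interval -0.47 to 0.98, edgeR adjusted p = 0.639). In naive mice H2-K1 ran from 76.2 to 322 CPM with vehicle and from 157 to 237 CPM with AP20187, so the AP20187 mice lay inside the vehicle range (log2 fold change 0.14, 95% interval -0.63 to 0.91).

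H2-D1 followed H2-K1 closely. It was at 286, 321, 377, 428 and 737 CPM in DMM vehicle mice 32, 33, 34, 63 and 64, and at 689, 463, 473, 452 and 596 CPM in DMM AP20187 mice 58 to 62. Again mouse 64 was above every AP20187 mouse. H2-D1 had a log2 fold change of 0.31 (95% interval -0.29 to 0.92) in DMM and 0.22 (-0.41 to 0.86) in naive mice. H2-K1 and H2-D1 are close paralogs, and how the counting shared reads between them is not given in the sources used here, so their separate values are uncertain. That also holds for the other heavy chains.

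H2-T23 encodes Qa-1, a nonclassical heavy chain that is read by the CD94/NKG2A receptor of natural killer cells. Its mean was 32.2 ± 15.8 CPM (SD, n = 5) in naive vehicle, 46.3 ± 12.04 (n = 4) in naive AP20187, 48.1 ± 31.8 (n = 5) in DMM vehicle and 59.8 ± 14.2 (n = 5) in DMM AP20187 mice. The SD of the DMM vehicle group came from mice that ran from 17.9 CPM (mouse 32) to 101 CPM (mouse 64). For AP20187 it had a log2 fold change of 0.31 (SE 0.38) in DMM and 0.52 (SE 0.40) in naive mice. H2-T23 lies within an antisense gene, A930015D03Rik, counted at 260 to 1035 reads per library. The library kit is stranded, but the counting setting is not given in the sources used here.

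B2m encodes the light chain, which every class I heavy chain needs to reach the surface. In naive vehicle mice 1 to 5 it was at 429.6, 159, 713, 303 and 179.6 CPM, and in naive AP20187 mice 1, 3, 4 and 5 at 599, 713, 443 and 367 CPM. The highest mouse of each treatment had the same value to 3 digits. Of the vehicle mice, 3 of 5 lay below all AP20187 mice and the other two lay among them (log2 fold change 0.57, 95% interval -0.16 to 1.31, edgeR adjusted p = 0.283). In DMM mice the log2 fold change was 0.33 (95% interval -0.36 to 1.03). B2m overlaps Patl2 on the opposite strand, which had at most 66 counts.

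Tap1 and Tap2 form the transporter that moves peptides into the endoplasmic reticulum. Tap2 was at 16.1, 27.1, 28.0, 31.5 and 46.4 CPM in DMM vehicle mice 32, 33, 34, 63 and 64, and at 66.4, 44.9, 54.1, 42.1 and 58.8 CPM in DMM AP20187 mice 58 to 62. Of the AP20187 mice, 3 of 5 were above every vehicle mouse and the other two lay below vehicle mouse 64 only. Tap2 rose by a log2 fold change of 0.84 (95% interval 0.34 to 1.34, fold 1.79, edgeR adjusted p = 0.0187). Without DMM AP20187 mouse 58 the log2 fold change was 0.74, the adjusted p was 0.0540 and 0 of 10 genes passed (14.2% of all genes). Tap2 overlaps Gm15821 on the opposite strand, which had at most 88 counts.

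In naive mice Tap2 was at 24.8, 18.7, 28.9, 30.3 and 18.5 CPM with vehicle (mice 1 to 5) and at 32.3, 46.6, 31.4 and 26.1 CPM with AP20187 (mice 1, 3, 4 and 5). Mouse 3 set the upper end, and mouse 5 lay within the vehicle range. The log2 fold change of 0.49 (95% interval -0.03 to 1.02, edgeR adjusted p = 0.200) did not pass. The difference between the effects in DMM and in naive mice was 0.34 (95% interval -0.38 to 1.07, edgeR adjusted p = 0.913), so the change in DMM mice was not shown to differ from that in naive mice. With AP20187, Tap2 was higher in DMM than in naive mice by a log2 fold change of 0.64 at an unadjusted p of 0.0204, which did not pass (edgeR adjusted p = 0.214).

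Tap1 had the same order of groups as Tap2, with 16.7 ± 6.53 CPM (SD, n = 5) in naive vehicle, 23.1 ± 11.7 (n = 5) in DMM vehicle, 25.0 ± 5.43 (n = 4) in naive AP20187 and 34.5 ± 8.25 (n = 5) in DMM AP20187 mice. Its log2 fold change was 0.58 (95% interval -0.09 to 1.25, edgeR adjusted p = 0.202) in DMM and 0.59 (95% interval -0.12 to 1.30, edgeR adjusted p = 0.253) in naive mice. Only 1 of 5 DMM AP20187 mice was above every vehicle mouse.

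Tapbp encodes tapasin, which holds the empty heavy chain at the transporter while it is loaded. It varied least of the 10 genes, with 77.2 ± 7.93 CPM (SD, n = 5) in naive vehicle, 95.3 ± 6.13 (n = 4) in naive AP20187, 88.9 ± 19.5 (n = 5) in DMM vehicle and 108 ± 16.4 (n = 5) in DMM AP20187 mice. In naive mice 3 of 4 AP20187 mice were above the highest vehicle mouse, number 4 at 90.7 CPM, and mouse 5 was below it at 88.0 CPM. The log2 fold change was 0.30 (95% interval -0.03 to 0.64, edgeR adjusted p = 0.211) in naive and 0.27 (95% interval -0.04 to 0.59, edgeR adjusted p = 0.197) in DMM mice. Tapbp overlaps Zbtb22 on the same strand over 3422 bases, and Zbtb22 had 963 to 1982 counts, so reads of the shared stretch could have gone to either gene.

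**Figure D2:**
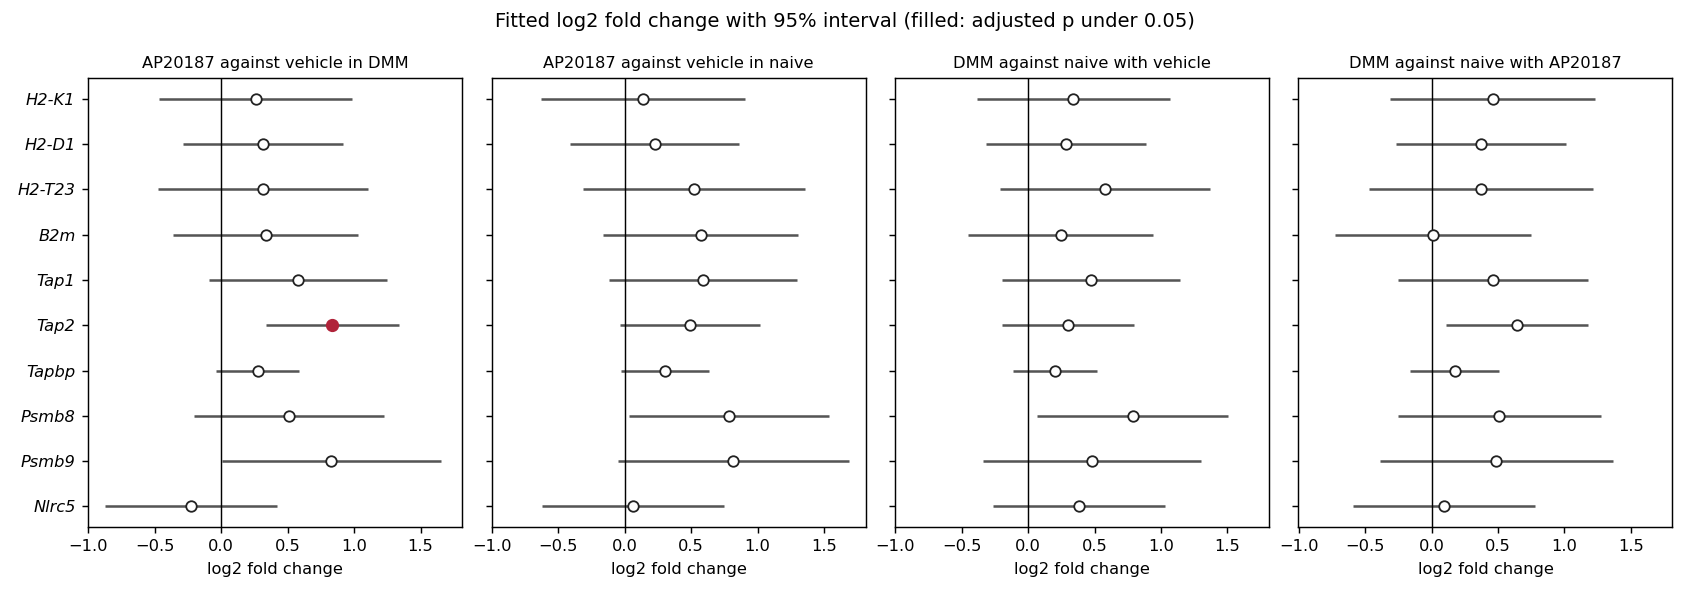
Fitted log2 fold change (horizontal axis) of each gene (vertical axis) in 4 comparisons, with 95% intervals as lines. The filled point, Tap2 for AP20187 against vehicle in DMM at 0.84, is the only one that passed the adjusted threshold, and nearly all points lie to the right of 0.

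Psmb8 and Psmb9 encode the inducible catalytic proteasome subunits LMP7 and LMP2, which take the places of Psmb5 and Psmb6 and change the peptides that are cut. Psmb8 was at 15.8, 17.9, 25.7, 32.3 and 56.7 CPM in DMM vehicle mice 32, 33, 34, 63 and 64, and at 54.0, 40.2, 39.4, 35.6 and 41.7 CPM in DMM AP20187 mice 58 to 62. Mouse 64 was above all 5 AP20187 mice, and the other 4 vehicle mice were below all of them. Psmb8 had a log2 fold change of 0.51 (95% interval -0.21 to 1.22, edgeR adjusted p = 0.301).

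In naive mice Psmb8 was at 18.6, 10.11, 31.7, 14.3 and 11.2 CPM with vehicle (mice 1 to 5) and at 37.2, 38.9, 20.5 and 21.8 CPM with AP20187 (mice 1, 3, 4 and 5). All 4 AP20187 mice lay above all vehicle mice other than number 3. The log2 fold change of 0.79 (95% interval 0.03 to 1.54) had an unadjusted p of 0.0423 and did not pass (edgeR adjusted p = 0.158). Without naive vehicle mouse 3, the log2 fold changes of Psmb8 and B2m were 1.13 and 0.99, and both passed (edgeR adjusted p = 0.0433 and 0.0471), so 2 of 10 genes passed beside 10.6% of all genes.

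Psmb9 had the widest relative spread with H2-T23: among the 10 vehicle mice its highest CPM was 5.91 times its lowest. It was at 3.93, 5.94, 7.61, 10.7 and 20.5 CPM in DMM vehicle mice 32, 33, 34, 63 and 64, and at 23.2, 17.3, 13.3, 12.5 and 20.3 CPM in DMM AP20187 mice 58 to 62. The vehicle mice other than 64 were below all AP20187 mice. The log2 fold change was 0.83 (95% interval 0.003 to 1.65, unadjusted p = 0.0493, edgeR adjusted p = 0.133) in DMM and 0.82 (95% interval -0.05 to 1.69, edgeR adjusted p = 0.197) in naive mice. Psmb9 and Tap1 lie head to head and overlap by 212 bases on opposite strands.

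The ratio of an inducible subunit to its constitutive counterpart, taken within a library from FPKM, cancels library scaling. Psmb8/Psmb5 was 0.0542, 0.0802, 0.128, 0.0673 and 0.132 in DMM vehicle mice 32, 33, 34, 63 and 64, and 0.169, 0.147, 0.119, 0.143 and 0.191 in DMM AP20187 mice 58 to 62. Here 4 of 5 AP20187 mice were above every vehicle mouse, and mouse 64 no longer stood above the AP20187 group. The log2 difference was 0.81 (exact two-sided permutation p = 0.0238, Benjamini-Hochberg adjusted p = 0.0714 over 12 such tests).

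In naive mice Psmb8/Psmb5 was 0.0676, 0.0472, 0.0919, 0.0765 and 0.0421 with vehicle (mice 1 to 5) and 0.137, 0.214, 0.108 and 0.112 with AP20187 (mice 1, 3, 4 and 5). The groups did not overlap, and the log2 difference was 1.13 (exact permutation p = 0.0159, adjusted p = 0.0714). The smallest exact p that 4 against 5 mice allow is 0.00794. This ratio was not among the 22778 single-gene comparisons, so no share of all genes stands beside it.

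Psmb9/Psmb6 differed by a log2 of 1.25 in DMM (exact permutation p = 0.0238, adjusted p = 0.0714) and of 1.03 in naive mice (exact permutation p = 0.0317, adjusted p = 0.0762). Psmb10/Psmb7, the remaining inducible pair, differed by 0.22 in DMM (exact permutation p = 0.468, adjusted p = 0.624) and by 0.66 in naive mice (exact permutation p = 0.0238, adjusted p = 0.0714). None of the 12 tests passed after adjustment. A ratio also depends on its constitutive gene. For AP20187 in edgeR, Psmb5 was at a log2 fold change of -0.22 in DMM and -0.29 in naive mice, and Psmb6 at -0.29 and -0.19. Psmb7 was at -0.25 and -0.51 and Psmb10 at -0.08 and 0.19, and none of these passed after adjustment. Differences in the ratios between DMM and naive mice ran from -0.10 to 0.48, with unadjusted exact permutation p of 0.190 or more.

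**Figure D3:**
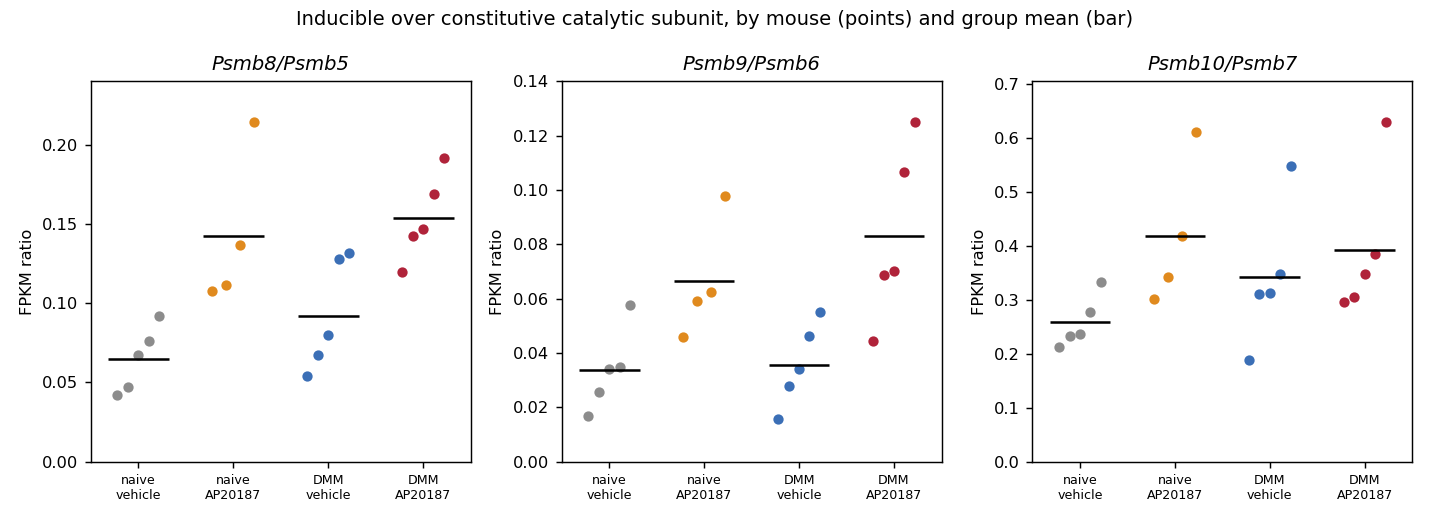
FPKM ratio of an inducible proteasome subunit to its constitutive counterpart (vertical axis, linear from 0) in the 4 groups (horizontal axis). Points are mice and bars are group means. The AP20187 mice lie mostly above the vehicle mice for Psmb8/Psmb5 and Psmb9/Psmb6, while Psmb10/Psmb7 overlaps widely in DMM mice.

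Nlrc5 encodes the coactivator that switches on the class I genes, and it was the only gene of the set with a negative fitted change in DMM mice. It was at 4.72, 8.998, 13.4, 6.86 and 11.9 CPM in DMM vehicle mice 32, 33, 34, 63 and 64, and at 11.8, 7.19, 6.44, 5.66 and 8.12 CPM in DMM AP20187 mice 58 to 62. The groups overlapped almost wholly (log2 fold change -0.23, 95% interval -0.87 to 0.42, edgeR adjusted p = 0.645). The value ran from -0.42 without AP20187 mouse 58 to -0.05 without vehicle mouse 34, and did not pass in any fit with 1 library left out. In naive mice the means were 7.02 ± 2.96 CPM (SD, n = 5) with vehicle and 7.34 ± 1.37 CPM (n = 4) with AP20187, and the fitted change of 0.06 turned to -0.02 without TMM and to -0.04 on log2(FPKM + 1). The difference between its effects in DMM and in naive mice was -0.29 (95% interval -1.23 to 0.65).

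Surgery alone moved no member past the threshold. With vehicle, 0 of 10 genes passed for DMM against naive, and 0% of all 22778 genes did: 377 genes had an unadjusted p under 0.05 in edgeR, DESeq2 called 0 genes (0%) and limma voom with sample weights called 1 (0.00439%), which was no member. The member with the smallest unadjusted p was Psmb8 (log2 fold change 0.79, 95% interval 0.07 to 1.51, unadjusted p = 0.0336, edgeR adjusted p = 1). Its log2 fold change ran from 0.20 to 1.41 over the alternatives: the lowest value was that without DMM vehicle mice 63 and 64 and the highest that without mice 32, 33 and 34, and it was 0.41 without mouse 64 alone. With AP20187, 0 of 10 genes passed for DMM against naive, beside 0.702% of all genes: 1 of 10 had an unadjusted p under 0.05, DESeq2 called 0 of the 10 members (4.87% of all genes) and limma voom with sample weights called 1 of 10, Tap2 (10.8%). For the difference between the AP20187 effects, 0 of 10 passed beside 0.114% of all genes, 0 of 10 had an unadjusted p under 0.05, and 0 of 10 were called by DESeq2 (1% of all genes) or by limma voom (0.233%).

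Most fitted values of the members were positive, though only that of Tap2 in DMM mice passed. Their median over the 10 genes was 0.32 for AP20187 in DMM mice, where the median of all tested genes was -0.10. That median was 0.69 without DMM vehicle mouse 64 and 0.63 with limma voom and sample weights. It was 0.51 in naive mice, where that of all genes was -0.07. Without naive AP20187 mouse 3 the naive median was 0.32. For DMM against naive the median was 0.36 with vehicle and 0.42 with AP20187, beside 0.03 and -0.01 over all genes. All 10 were positive in both with all mice in edgeR. Under limma voom with sample weights, 9 of 10 were positive with AP20187, the lowest being at -0.09. With vehicle the median was 0.08 without DMM vehicle mouse 64, -0.03 with 4 of 10 positive without mice 63 and 64, 0.82 without mice 32, 33 and 34, and 0.66 without naive vehicle mouse 3. Leaving out naive vehicle mouse 2 or 5 gave 0.24. With AP20187 it was 0.27 with 8 of 10 positive without naive AP20187 mouse 5, and 0.29 with 8 of 10 positive without DMM AP20187 mouse 58. The AP20187 and the surgery comparisons share groups, and the 10 genes were positively correlated from mouse to mouse, so these counts are not independent of each other.

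No member had groups of CPM that lay fully apart in any of the 4 pairwise comparisons. Among all tested genes the groups were apart in 12.9% for AP20187 against vehicle in DMM, in 15.5% for the same in naive mice, in 0.237% for DMM against naive with vehicle and in 5.9% with AP20187. DMM AP20187 mice had the highest group mean for 9 of the 10 genes, and naive vehicle mice the lowest for all 10. For Nlrc5 the highest mean was that of DMM vehicle mice.

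Within a group, 1 mouse was often the highest or the lowest for most of the members. DMM vehicle mouse 64 was the highest of its group for 9 of 10 genes and mouse 32 the lowest for 10 of 10. DMM AP20187 mouse 58 was the highest of its group for all 10, and mouse 61 the lowest for 9. Naive vehicle mouse 3 was the highest for 8, with mice 2 and 5 the lowest for 5 genes each, and naive AP20187 mouse 3 was the highest for 8 and mouse 5 the lowest for 9. Nlrc5 was among the exceptions: DMM vehicle mouse 34 was the highest of its group for Nlrc5 and for no other member, and naive AP20187 mouse 4 was the highest of its group for Nlrc5 and the lowest for Psmb8.

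**Figure D4:**
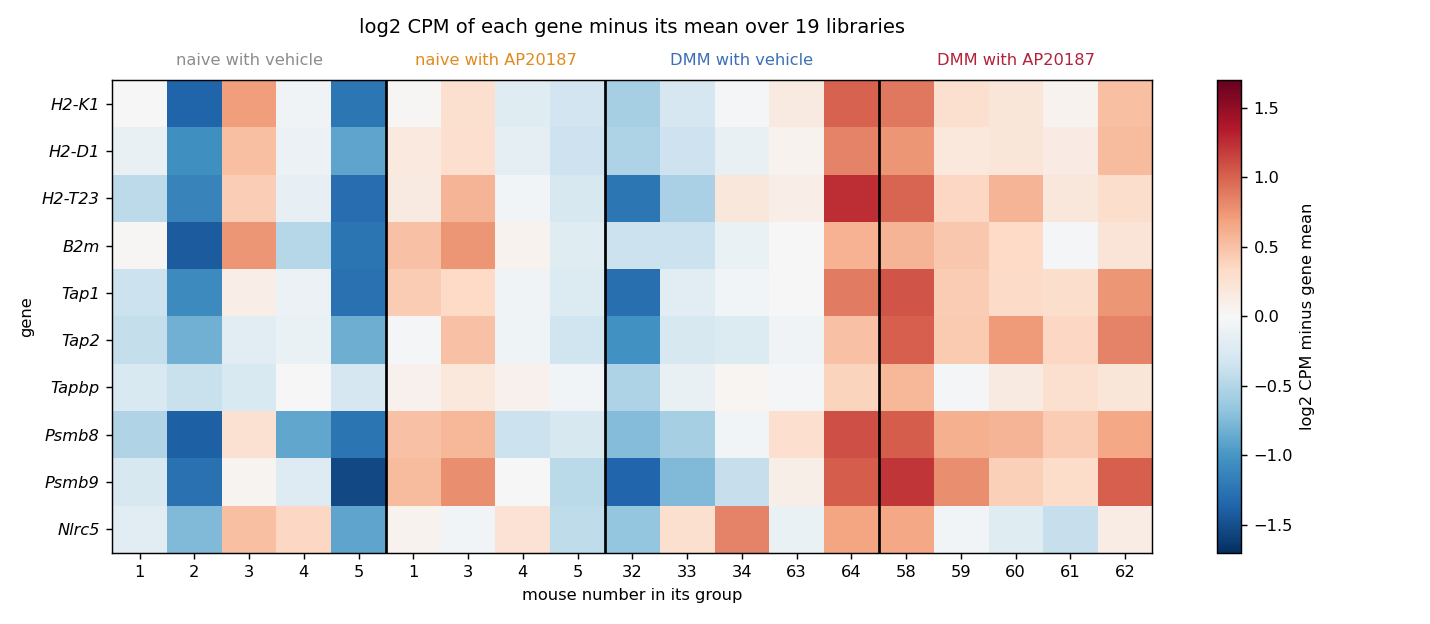
log2 CPM of each gene (rows) in each of the 19 libraries (columns, by group and mouse number), minus the gene's mean over all libraries. Columns are mostly 1 colour from top to bottom: vehicle mouse 64 and AP20187 mouse 58 of the DMM groups are high, and DMM vehicle mouse 32 and naive vehicle mice 2 and 5 are low, across nearly all 10 genes.

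Correlations of the deviations from the group means put numbers on this, as a description over 19 libraries that share library preparation and tissue make-up. Over the 45 pairs of members Pearson's r ran from 0.397 to 0.986, with a median of 0.849. The highest was that of H2-K1 with H2-D1, which may share reads, and the lowest that of B2m with Tapbp. Tap1 with Psmb9, which lie head to head, had an r of 0.952. The within-group SD of log2 CPM was 0.57 for Psmb8, 0.67 for Psmb9 and 0.65 for H2-T23, and 0.22 for Tapbp, where the median over the 11613 tested genes of at least the level of Nlrc5 was 0.34.

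Psmb9, Tap1, Psmb8 and Tap2 lie side by side on chromosome 17 in the files' build, GRCm39, from 34400961 to 34435295, a stretch of 34335 bases in the class II part of the mouse MHC. H2-K1 (34214991 to 34219321, minus strand), Tapbp (34134873 to 34145171), H2-D1 (35481706 to 35486475) and H2-T23 (36340665 to 36343747, minus strand) are on the same chromosome. B2m is on chromosome 2 (121978167 to 121983564) and Nlrc5 on chromosome 8 (95160984 to 95253900), outside the MHC. The 2 genes outside the MHC were also correlated with the rest from mouse to mouse, with a median r of 0.821 for B2m and 0.754 for Nlrc5 with the other 9 members.

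The call for AP20187 in DMM mice depended on which vehicle mice it was set against. The DMM vehicle mice carry numbers of 2 series, 32 to 34 and 63 to 64, and no label names a batch. Against mice 32, 33 and 34 alone, 5 of 10 genes passed (Tap1, Tap2, Tapbp, Psmb8 and Psmb9, beside 36.3% of all genes), with a median log2 fold change of 0.81 over the members. Against mice 63 and 64 alone, 0 of 10 passed (4.73% of all genes), the median was -0.03, and H2-K1, H2-D1, H2-T23 and Psmb8 turned negative at -0.21, -0.12, -0.28 and -0.07. Leaving out mouse 64 alone also gave Tap1, Tap2, Tapbp, Psmb8 and Psmb9, at 34% of all genes. Tap2 stayed positive throughout, at 1.17 against mice 32 to 34 and at 0.46 against mice 63 and 64, where its edgeR adjusted p was 0.387.

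**Figure D5:**
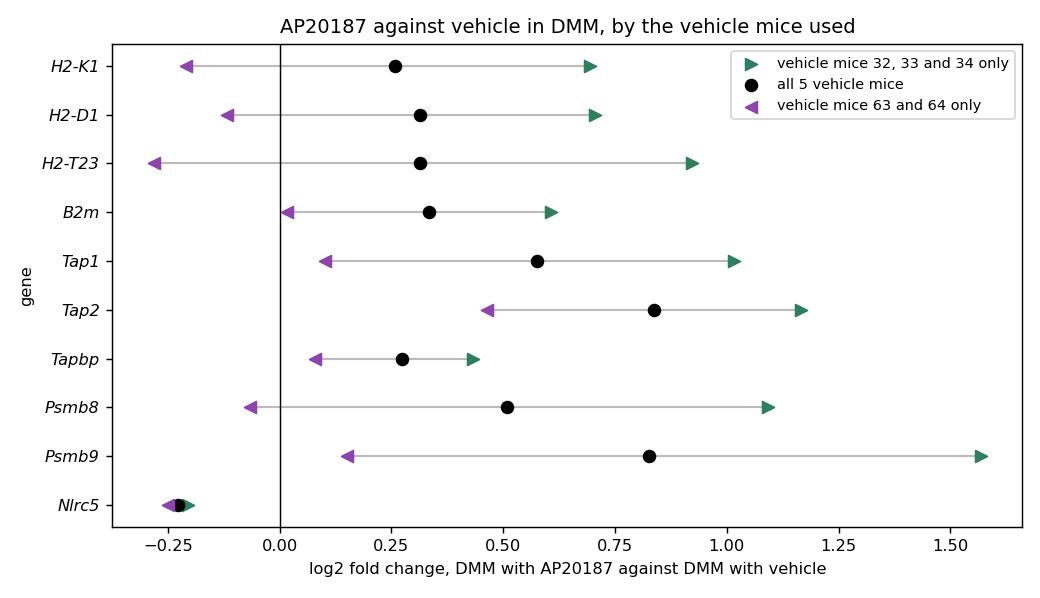
Fitted log2 fold change for AP20187 against vehicle in DMM (horizontal axis) of each gene (vertical axis), with all 5 vehicle mice (circles), with mice 32, 33 and 34 only (right-pointing triangles) and with mice 63 and 64 only (left-pointing triangles). H2-K1, H2-D1, H2-T23 and Psmb8 lie on both sides of 0, Tap2 lies between 0.46 and 1.17, and Nlrc5 stays negative.

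Leukocyte markers were high in some of the mice that were high in class I genes. The summed CPM of 5 pan-leukocyte genes (Ptprc, Cd52, Laptm5, Coro1a, Cd53) was 173, 178, 372, 492 and 977 in DMM vehicle mice 32, 33, 34, 63 and 64, and 940.3 to 1795 in DMM AP20187 mice. In naive mice it was 199.7 to 385 with vehicle and 493 to 1102 with AP20187. Vehicle mouse 64, the highest for most members, lay inside the AP20187 range of this sum, and the naive vehicle mice lowest for the members, numbers 2 and 5, were also the lowest for it. DMM AP20187 mouse 62 had the highest sum, 1795 CPM, and was the highest of its group for no member, while mouse 58, the highest for all 10, had 1610.4 CPM.

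The mice highest for most members were also the highest of their groups for the 12 macrophage genes and for 6 fibroblast genes. The macrophage genes summed to 674 CPM in DMM vehicle mouse 64, 1082 in DMM AP20187 mouse 58, 538 in naive vehicle mouse 3 and 847 in naive AP20187 mouse 3. The fibroblast genes summed to 6943 CPM in DMM vehicle mouse 64 against 1247 to 4433 in the other 4 mice of the group, and to 6312 CPM in DMM AP20187 mouse 58 against 1768 to 6107. In naive vehicle mice the sum was highest in mouse 3, at 4359 CPM, and lowest in mouse 5, at 862 CPM, and in naive AP20187 mice it was highest in mouse 3, at 5861 CPM. DMM vehicle mouse 64, DMM AP20187 mouse 58 and naive AP20187 mouse 3 were also the highest of their groups for endothelial and erythroid genes. They were the lowest of their groups for the sensory neuron genes, at 4785, 1925 and 2165 CPM. In naive vehicle mice mouse 4, not mouse 3, held these places. The part of any of these cell types in the members' values was not tested.

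The marker sums of several cell types were set side by side for AP20187 and vehicle, some with ranges that overlap. The sums were not tested. The 10 neutrophil genes summed to 16667 to 28696 CPM in DMM AP20187 mice against 391 to 7769.6 with vehicle, and to 7976 to 27380.4 against 824 to 2226 CPM in naive mice. The 12 macrophage genes summed to 271 to 1082 CPM with AP20187 and 193 to 674 with vehicle in DMM mice, and to 503 to 847 and 109 to 538 CPM in naive mice. The 10 endothelial genes, a cell type rich in class I, summed to 342 to 661 against 154 to 275 CPM in DMM mice and to 418 to 1131 against 133 to 640.4 in naive mice. The 11 sensory neuron genes summed to 1925 to 5454 CPM with AP20187 and 4785 to 10328 with vehicle in DMM mice, and to 2165 to 8276 and 6580.0 to 11529 CPM in naive mice.

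The 8 proliferation genes were apart in both comparisons, at 926 to 2203 CPM with AP20187 and 51.6 to 535 with vehicle in DMM mice, and at 385 to 1163 and 89.4 to 363 CPM in naive mice. The 8 skeletal muscle genes were at 1703 to 2646 CPM in naive AP20187 mice against 13.2 to 456 with vehicle, and at 18.5 to 152 against 15.3 to 2002 CPM in DMM mice. The 6 fibroblast genes overlapped, at 1768 to 6312 and 1247 to 6943 CPM in DMM mice and 2961 to 5861 and 862 to 4359 CPM in naive mice. The 6 erythroid genes were at 1261 to 5126 CPM with AP20187 and 1565 to 26309 with vehicle in DMM mice, and at 1891 to 4205 and 3276 to 13027 CPM in naive mice.

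Lymphocyte and dendritic cell genes were also summed. The 10 T and NK cell genes summed to 23.8 to 45.2 CPM with AP20187 and 5.35 to 34.0 with vehicle in DMM mice, and to 12.3 to 35.5 and 4.54 to 17.9 CPM in naive mice. The 8 B cell genes went the other way, at 2.70 to 9.02 CPM with AP20187 and 12.4 to 166 with vehicle in DMM mice, and the 6 dendritic cell genes were at 23.6 to 32.1 and 37.2 to 52.4 CPM. In naive mice the B cell genes were at 2.87 to 6.35 and 25.5 to 73.6 CPM, and the dendritic cell genes at 28.9 to 38.9 and 42.4 to 49.4 CPM. The sums of satellite glia genes and of myelinating Schwann cell genes overlapped between treatments in both comparisons. Of the named lists' markers, 1 was at 0 in all libraries of a group, Igll1 of the B cell list in naive AP20187 mice. The part of these cell types in the members' values was not tested, and in bulk tissue more cells of a type cannot be told apart from more RNA of a gene per cell.

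The genes most like the mean of the members over the 19 libraries, by Pearson's r of log2 CPM, were Aim2 (r = 0.945), Tor3a (0.943), Fgd2 (0.942), Ticam2 (0.941) and Gm20559 (0.941). Their r of the deviations from group means was 0.913, 0.952, 0.946, 0.915 and 0.911. Aim2 encodes a sensor of cytosolic DNA and Ticam2 an adaptor of Toll-like receptor 4. Nlrc5 was most like Gm12250 (r = 0.860), H2-Q4 (0.826) and Tgtp2 (0.814). H2-Q4 is another class I heavy chain, and Tgtp2 is a GTPase induced by interferon gamma.

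The counts of the lists that follow stand beside these shares of all tested genes: for AP20187 11.3% rose and 12.4% fell in DMM mice, and 8.61% rose and 2.57% fell in naive mice.

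Of the other class I heavy chains, 20 were tested. In DMM mice 0 rose and 1 fell with AP20187: Cd1d1, which presents lipids to natural killer T cells, was at 4.38 ± 0.790 CPM (SD, n = 5) against 6.81 ± 1.09 (n = 5) with vehicle (log2 fold change -0.64, edgeR adjusted p = 0.0283). In naive mice 0 rose and 1 fell: H2-Q10, a secreted heavy chain best known from liver, at 0.890 ± 0.541 CPM (n = 4) against 4.74 ± 1.74 (n = 5). The median fitted change of the 20 was 0.07 in DMM and 0.16 in naive mice.

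The partners that trim and load peptides rose in part. Of 9 tested, 4 rose in DMM and 3 in naive mice, and 0 fell in either. The chaperone calreticulin (Calr), part of the loading complex, rose from 234 ± 25.2 to 448 ± 84.3 CPM (SD, n = 5 each) in DMM mice (log2 fold change 0.94, edgeR adjusted p = 0.000455) and by a log2 fold change of 1.07 in naive mice (edgeR adjusted p = 0.000461). Erap1, which trims peptides in the endoplasmic reticulum, rose by 0.76 and 0.60 on the log2 scale. Hspa5, a general chaperone there, rose by 0.92 and 0.50. The median of the 9 was -0.06 in DMM and -0.03 in naive mice, near those of all genes (-0.10 and -0.07).

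Of 15 constitutive proteasome genes tested, the core subunits Psma1 to Psma7 and Psmb1 to Psmb7 and the activator subunit Psme3, 0 changed in either comparison, and their medians were 0.03 in DMM and -0.12 in naive mice. Of 5 further inducible proteasome partners, 1 rose in DMM and 2 rose in naive mice. Ubd, the ubiquitin-like FAT10 induced by interferon gamma and tumour necrosis factor, rose in both, from 0.316 ± 0.319 to 1.73 ± 0.566 CPM (SD, n = 5 each) in DMM mice (log2 fold change 2.45, edgeR adjusted p = 0.0458) and by a log2 fold change of 3.99 in naive mice (edgeR adjusted p = 0.0125). Psme1, a subunit of the PA28 proteasome activator, rose in naive mice from 30.5 ± 7.63 (n = 5) to 63.2 ± 21.9 CPM (n = 4), with an edgeR adjusted p of 0.0334.

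The factors that sit with NLRC5 on class I promoters rose in DMM mice for 5 of 8 tested genes, with 0 falling, and in naive mice for 1 of 8. In naive mice that count is near the 8.61% of all genes that rose. Atf1, of the CREB/ATF family that binds the X2 box, rose from 21.9 ± 12.7 to 52.1 ± 13.6 CPM (SD, n = 5 each) in DMM (log2 fold change 1.25, edgeR adjusted p = 0.0155) and by 1.28 in naive mice (edgeR adjusted p = 0.0288). The NF-Y subunits that bind the Y box, Nfya and Nfyb, rose in DMM mice by 0.73 and 0.66 on the log2 scale (edgeR adjusted p = 0.0132 and 0.00602). These factors act on many promoters besides those of class I.

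Of 23 interferon gamma pathway genes, 3 rose and 1 fell in DMM mice, and 6 rose and 0 fell in naive mice. The 4 changed genes in DMM mice are no larger a share than the 23.8% of all genes that changed. In DMM mice the receptor subunit Ifngr1 rose by a log2 fold change of 1.05, the kinase Jak2 by 0.78 and the factor Irf1 by 0.75, while the GTPase Igtp fell by 0.58 on the log2 scale. In naive mice the GTPases Iigp1, Irgm1 and Gbp5 rose by 1.32, 1.16 and 1.10. Their median was -0.02 in DMM and 0.51 in naive mice. For the interaction the median was -0.60, with 0 of 23 genes called.

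Of 20 type I interferon pathway genes, 3 rose and 2 fell in DMM mice, and 5 rose and 0 fell in naive mice. In DMM mice the 5 of 20 are near the 23.8% of all genes. The median of the 20 was -0.30 in DMM and 0.43 in naive mice. For the interaction it was -0.64, with 0 of 20 genes called. Oas1a, an antiviral enzyme that senses double-stranded RNA, rose in DMM mice from 6.77 ± 3.26 to 20.8 ± 4.63 CPM (SD, n = 5 each; edgeR adjusted p = 0.00173) and in naive mice from 3.64 ± 0.963 (n = 5) to 16.8 ± 4.30 CPM (n = 4; edgeR adjusted p = 0.000540). Mx1 and Rsad2, both classical targets of type I interferon, fell in DMM mice by 1.78 and 1.28 on the log2 scale. The receptor subunit Ifnar2 rose by 0.99 in DMM and by 0.82 in naive mice, the kinase Tyk2 by 0.69 in DMM and Irf7 by 1.47 in naive mice.

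In a list of 14 tested genes of receptors for class I or class I-like molecules and of myeloid receptors related to them, 3 rose and 0 fell in both comparisons, and they were the same genes, Pirb, Pilra and Lilrb4a. Of these Pirb is an established receptor for class I, while Pilra and Lilrb4a are inhibitory receptors known for other ligands. These 3 of 14 stand beside the 11.3% of all tested genes that rose in DMM mice and the 8.61% that rose in naive mice. In DMM mice 23.8% of all tested genes changed in either direction. Pirb, an inhibitory receptor for class I on myeloid and B cells, rose from 42.5 ± 37.4 to 346 ± 98.6 CPM (SD, n = 5 each) in DMM mice (log2 fold change 3.03, edgeR adjusted p = 0.000905) and from 27.5 ± 11.8 (n = 5) to 249.9 ± 114 CPM (n = 4) in naive mice (edgeR adjusted p = 0.00156). Lilrb4a rose by 2.57 in DMM and 2.79 in naive mice, and Pilra by 2.79 and 3.48. The median of the 14 was -0.23 in DMM and 0.57 in naive mice, beside -0.10 and -0.07 over all genes. Pirb, Pilra and Lilrb4a are carried by myeloid cells, and the part of such cells in their rise was not tested. In the comparisons of DMM with naive mice and in the interaction, 0 genes of any of these 8 lists passed.

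Libraries held 60984830 to 74691396 counts. In naive mice 77.0% of the 2548 genes called for AP20187 were higher, against 62.9% of 2465 without TMM scaling and 38.0% of 4354 on log2(FPKM + 1), where FPKM per count was 0.901 to 0.922 of the median library in naive AP20187 mice 1, 3 and 4. The members' median fell from 0.51 to 0.42 without TMM and to 0.31 on log2(FPKM + 1), and all members other than Nlrc5 stayed positive under both.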

How the data were processed

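Bulk poly(A) RNA sequencing was compared over 19 mice in the 4 groups that the labels give, 1 library per mouse. The authors deposited whole-number read counts per gene with no normalization and, beside them, FPKM, which scales fragments to gene length and library size, per the file headers. The build was GRCm39 and the tools cutadapt, HISAT2 and StringTie, per the submitters' processing notes; their roles, the counting program and the strand setting are not given in the sources used here. The counts went into edgeR 4.0.16 under R 4.3.3 (TMM, filterByExpr with a minimum count of 10, quasi-likelihood F test) in 1 model of the 4 groups with 15 residual degrees of freedom and 5 contrasts, with Benjamini-Hochberg adjustment over 22778 genes and a threshold of 0.05. P-values measure the spread between mice. The model was tested on simulated data. Alternatives used DESeq2 1.42.0 and limma 3.58.1, the latter on log2(FPKM + 1) and log2(FPKM + 0.1) for genes with an FPKM of at least 0.5 in 4 libraries and as voom with sample weights. The FPKM ratios were compared by exact two-sided permutation tests. The log2 CPM used for correlations had a prior count of 2. Promoter motifs were searched in the 250 bases before each start in RefSeq windows of build GRCm38.p6, with no coordinates converted between builds. The members and the gene and marker lists were chosen with earlier results of these data known. All members were named; of each list, up to 3 called genes per direction with the largest change were named, and the genes most like the members by r.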

Additional observations from a re-analysis of the deposited data

Results flagged for a closer look

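Within groups of 4 or 5 mice, each member's CPM and each of the 3 subunit ratios were looked over for a value far from the others, 52 groups in all, of which chance alone flags about 1 in 20. Only Tapbp in naive vehicle mice held one: mouse 4 was at 90.7 CPM, while the other 4 mice lay between 69.7 and 75.7 CPM. The same mouse had the highest sum of the endothelial markers in its group, 640.4 CPM against 133 to 241 in the other 4, and the part of those cells in the value was not tested.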

How the results depend on the processing

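Of the counts of members that passed, that for AP20187 in DMM mice was 1 in the report and ran from 0 to 5 when each library was left out in turn; it was 4 with limma voom and sample weights, 5 without DMM vehicle mice 63 and 64 and 0 without mice 32, 33 and 34. For AP20187 in naive mice the count was 0 in the report, 0 to 2 with each library left out, and 1 (Psmb8, log2 fold change 0.72, adjusted p = 0.0403) with a replicate block on mice 1, 3, 4 and 5. No label says that the shared numbers pair the mice, and so few mice cannot decide it. The r of deviations between mice of the same number was -0.053 to 0.254, with mice 3 and 5 closest to their own number and mice 1 and 4 not. The block changed no other member's call; the same 8 mice without it, an alternative chosen after seeing the data, gave 0 members and 1388 genes in all, against 2352 with it. With AP20187, DMM against naive gave 1 (Tap2) under voom. The other counts of members, those with DESeq2, without TMM, with no filter, on FPKM and on the compared groups alone included, were as reported. Over all genes, calls for AP20187 were 5410 in DMM mice and 10676 under voom, and 2548 in naive mice, 4356 with DESeq2, 4542 under voom and 4354 on log2(FPKM + 1). For DMM against naive with AP20187 they were 160, 1109 with DESeq2 and 2456 under voom, and for the interaction 26 and 224 with DESeq2.
Directions turned as follows. Without DMM vehicle mice 32, 33 and 34, H2-K1, H2-D1, H2-T23 and Psmb8 for AP20187 in DMM were at -0.21, -0.12, -0.28 and -0.067, the Tap2 interaction at -0.070 and Psmb10/Psmb7 in DMM at -0.13. Psmb9/Psmb6 for DMM against naive with vehicle turned to -0.11 without mice 63 and 64, and ran from -0.15 to 0.34 with each library left out. Psmb10/Psmb7 for DMM against naive with AP20187 turned to 0.10 without naive AP20187 mouse 3 (-0.28 to 0.10 with each library left out). For AP20187 in naive mice, Nlrc5 was at -0.020 without TMM, -0.038 on both FPKM scales, -0.029 in the 8 mice without a block and -0.063 to 0.26 with each library left out. H2-K1 there was at -0.0092 in those 8 mice and ran from -0.048 (without naive vehicle mouse 2) to 0.49 with each library left out. Tap2 in DMM fell short of the threshold without AP20187 mouse 58 (0.74) and without vehicle mice 32, 33 and 34 (0.46). The cause was not tested, other than that fewer mice were fitted. The ratios were tested by exact permutation of few mice, which limits their p-values, and no model over all libraries was fitted to them. Counts of 255 or more per library put depth below the spread between mice as a limit.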

Other observations

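The spacing of 20 bases between TGACG and ATTGG, searched because H2-K1, H2-D1 and B2m share it, was also found before the start of H2-M3, a nonclassical heavy chain that presents N-formylated peptides. H2-M3 was named after this search and was not among the 10 genes. Its mean was 8.82 CPM with AP20187 and 10.5 CPM with vehicle in DMM mice (log2 fold change -0.26), and 7.16 and 9.30 CPM in naive mice (-0.38), and neither difference passed in edgeR (adjusted p = 0.539 and 0.392).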
